A study of Mus musculus with 18 samples.

Results

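The lysozyme and macrophage genes described here are 10 genes of mouse macrophages, measured in thymocyte preparations from ageing mice. They are the lysozyme genes Lyz2 and Lyz1, the phagocyte oxidase gene Cybb, the complement genes C1qa and C1qb, the growth factor receptor gene Csf1r, and the marker genes Cd68, Adgre1, Cd14 and Mrc1. They were chosen by gene name, with earlier results of these data known. The gene names on the array gave 10 probes of 8 genes. Another 3 probes were matched to RefSeq through their accessions, 1 of Lyz1, which the array names Lzp-s, and 2 of Adgre1, the gene of the surface antigen F4/80, formerly Emr1. Of these 13 probes among 41174 distinct probes on the array, 12 were among the 37448 probes tested. The one left out was a dim Adgre1 probe, A_52_P364727, well above background on 2 of 9 arrays in Cy3 and on 7 in Cy5.

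Thymocytes, the T cell precursors that fill the thymus, had been isolated from C57BL/6 mice of 6, 16 and 24 months, with 3 mice per age. Each mouse was labelled with Cy3 and hybridized to its own 2-colour Agilent array, against thymocytes of 1 month old C57BL/6 mice in Cy5 on all 9 arrays. The design text calls the 1 month material a pool, whereas the sample labels number 9 single mice, and it was counted here as 1 control sample. The cells were an unsorted suspension of whole thymus, passed through a strainer, with fat washed off and red cells lysed by ammonium chloride, so that other cells of the thymus could remain in it.

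Values are log2 ratios of Cy3 to Cy5 processed signal, so that 0 means the level of the 1 month reference and 1 means a doubling. No array had the dyes swapped, so the difference between an age and the reference cannot be told apart from the difference between Cy3 and Cy5. Differences between ages do not share this limit. A probe was called at an adjusted p under 0.05 in limma, a linear model that shares information on the spread across probes, with Benjamini-Hochberg adjustment over all 37448 tested probes. The number of arrays limits the precision, and the p-values measure the spread between these mice only.

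The 9 arrays were not alike in quality or in other cells. Between 85.9% and 94.2% of features were well above background in Cy3 on 8 arrays, and 79.6% on 24 months replicate 2. The 15 thymocyte markers were well above background in Cy3 on every array, and so were the tested probes of both lysozymes, C1qa, C1qb, Cd68, Adgre1, Csf1r and Cd14. The granulocyte markers were high on a single array, 16 months replicate 2, with a mean log2 ratio of 1.01 over 15 genes, against -1.52 to -0.41 on the other 8. In a bulk preparation, a change in the number of macrophages and a change in the RNA per macrophage cannot be told apart.

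Macrophages of the thymus engulf the many thymocytes that die during selection. Lysozyme is the enzyme that cleaves the peptidoglycan of bacterial cell walls. In the mouse it is encoded by neighbouring genes, Lyz2, which is widely used as a marker of macrophages, monocytes and neutrophils, and Lyz1, known from the Paneth cells of the gut. Cybb encodes the membrane subunit of the NADPH oxidase that makes superoxide in phagocytes. The genes C1qa and C1qb encode chains of C1q, the recognition part of the classical complement pathway, which tissue macrophages secrete. Csf1r is the receptor on which most macrophages depend for survival.

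The accessions listed for the Lyz1 probe include those of both Lyz1 and Lyz2, so that its signal may come from either gene. The probe sequences were not used here. The sequences of 250 bases before the start of each gene, from RefSeq on GRCm38.p6, show how alike the genes are just before their starts and how they differ further away. They lie on the minus strand at chr10:117282273-117282522 for Lyz2 and chr10:117292869-117293118 for Lyz1, are printed 5′ to 3′, and have in capitals the longest run that they share, the 50 bases next to the start.
Lyz2: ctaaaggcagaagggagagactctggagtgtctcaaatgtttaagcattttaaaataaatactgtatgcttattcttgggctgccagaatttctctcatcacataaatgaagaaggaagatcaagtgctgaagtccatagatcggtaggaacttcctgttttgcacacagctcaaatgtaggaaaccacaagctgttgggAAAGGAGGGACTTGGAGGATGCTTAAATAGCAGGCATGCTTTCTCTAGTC
Lyz1: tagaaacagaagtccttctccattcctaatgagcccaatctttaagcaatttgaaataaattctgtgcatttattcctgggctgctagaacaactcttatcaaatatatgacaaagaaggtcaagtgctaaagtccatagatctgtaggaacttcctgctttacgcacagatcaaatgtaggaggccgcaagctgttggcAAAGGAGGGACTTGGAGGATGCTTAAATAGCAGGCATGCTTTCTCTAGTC
Compared base by base without gaps, the nearest 100 bases were the same at 92 positions, or 92%. Over the whole 250 bases, 152 positions were the same, or 60.8%.

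The Lyz1 probe and Lyz2 A_52_P238027 had the largest differences of any member from 6 months, at 16 and at 24 months. At 6 months they stood near or below the 1 month reference, and at 16 months all 3 probes had risen above it, 1.80-fold to 2.45-fold. At 24 months the Lyz1 probe was still higher, 1.97-fold. No lysozyme probe passed the test between ages.

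Lyz2 probe A_52_P238027 had log2 ratios of -0.66, -0.29 and -0.25 at 6 months, 0.89, 1.55 and 0.52 at 16 months, and 1.47, -0.02 and 0.50 at 24 months. Every 16 months array lay above every 6 months array, and so did every 24 months array, although 24 months replicate 2 was only at the level of the reference. The processed Cy3 signal behind these ratios was 13152, 14807 and 12801 at 6 months, 32308, 58993 and 29688 at 16 months, and 53372, 11200.5 and 28675 at 24 months. The Cy5 signal of the reference ran from 15226 to 20779 on 8 arrays and was 11372 on 24 months replicate 2, so that both channels of that array were low. No array was saturated for this probe.

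The mean log2 ratio of this probe was -0.40 ± 0.23 (SD, n = 3) at 6 months, 0.65 ± 0.76 (SD, n = 3) at 24 months and 0.99 ± 0.52 (SD, n = 3) at 16 months, from lowest to highest. The neighbours 24 and 16 months in this order differed by less than their spread (24 against 16 months -0.34, SE 0.39, 95% interval -1.24 to 0.57). Between 16 and 6 months the log2 difference was 1.39, or 2.62-fold (SE 0.39, 95% interval 0.48 to 2.29, unadjusted p = 0.00765, adjusted p = 0.769 by limma). At 24 against 6 months it was 1.05 (SE 0.39, 95% interval 0.15 to 1.95, adjusted p = 0.518). Both intervals lay above 0, but neither difference passed once adjusted over all probes tested.

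Against the reference, this Lyz2 probe rose at 16 months by 0.99 on the log2 scale (SE 0.28, adjusted p = 0.0441 by limma), or 1.99-fold. The call was close to the threshold and ended without any of 7 of the 9 arrays, with adjusted p from 0.0581 to 0.243. The exceptions were 24 months replicates 1 and 2. Arrays of other ages do not enter the 16 months value itself, only the shared spread and the adjustment. At 24 months the probe stood at 0.65 (SE 0.28, adjusted p = 0.118).

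**Figure D1:**
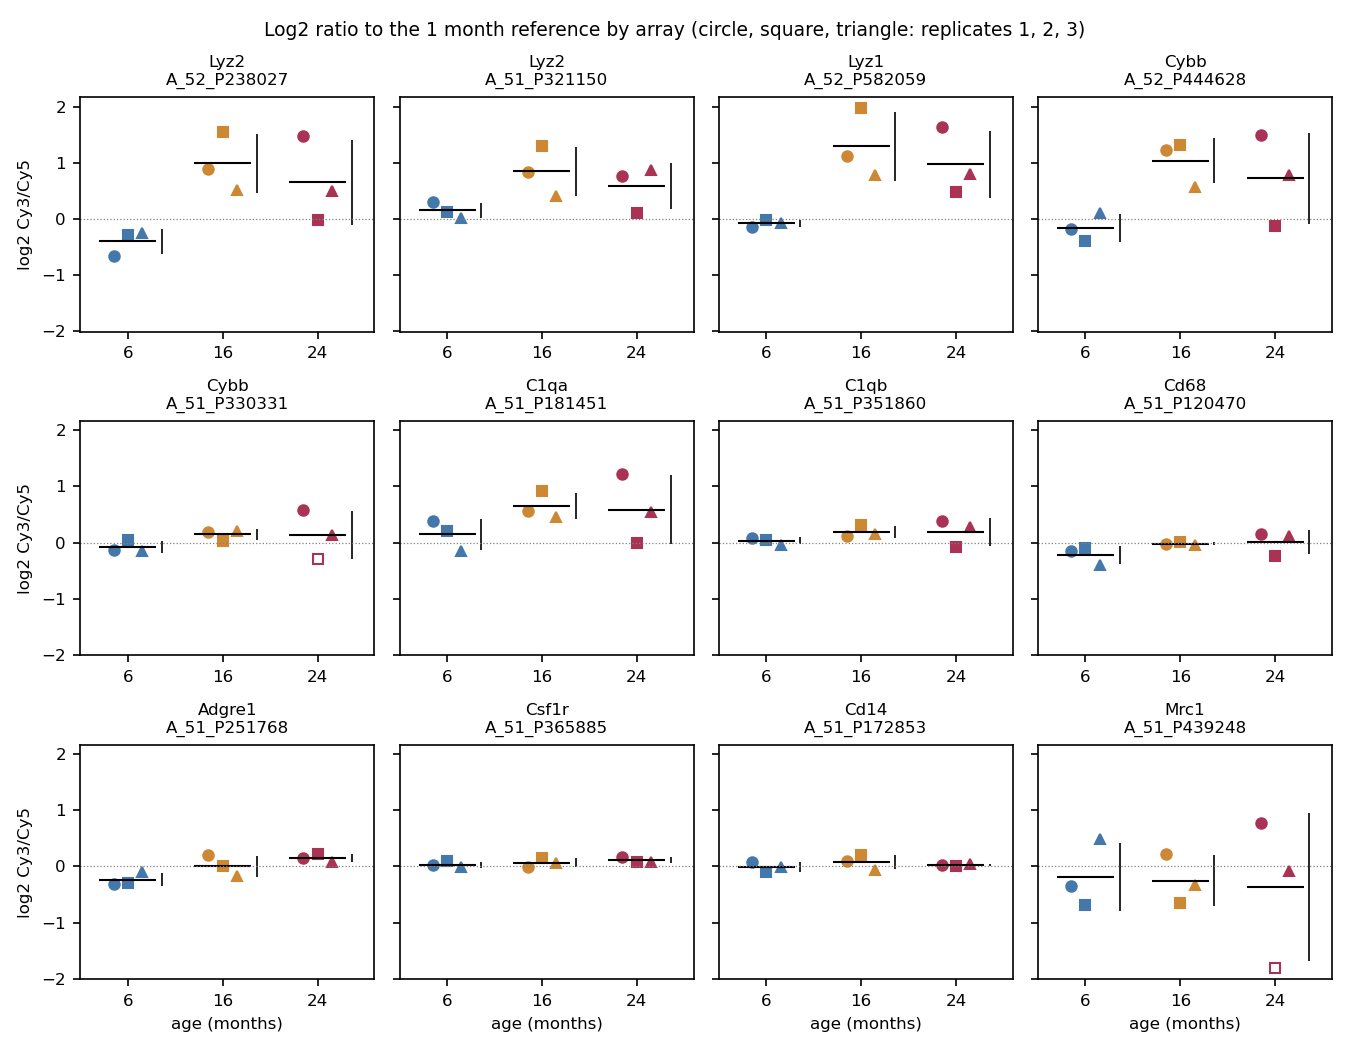
Log2 ratio of Cy3 to Cy5 (y axis) by age in months (x axis) for the 12 tested probes, with 1 symbol per array, a horizontal line at the mean of 3 arrays and a vertical line of 1 SD beside it; open symbols were not well above background in Cy3. The lysozyme probes and Cybb A_52_P444628 lie higher at 16 than at 6 months on every array, Csf1r and Cd14 stay near 0, and 24 months replicate 2 (square) is the lowest 24 months array in most panels.

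The other Lyz2 probe, A_51_P321150, had log2 ratios of 0.30, 0.13 and 0.02 at 6 months, 0.83, 1.30 and 0.41 at 16 months, and 0.77, 0.11 and 0.88 at 24 months. Unlike the first Lyz2 probe it was above the reference on all 9 arrays, and its 24 months arrays overlapped those of 6 months. It rose by 0.84 at 16 months against the reference (SE 0.18, adjusted p = 0.0200 by limma), and was 0.58 at 24 months (SE 0.18, adjusted p = 0.0523). Between 16 and 6 months it differed by 0.69 (SE 0.26, 95% interval 0.09 to 1.30, adjusted p = 0.769). Its 16 months call ended without 16 months replicate 1 (0.85, adjusted p = 0.0700). This probe was dim, and with normexp background correction and loess its 16 months value was 0.44, against 0.97 for A_52_P238027 processed that way.

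The Lyz1 probe A_52_P582059 had log2 ratios of -0.14, -0.02 and -0.08 at 6 months, 1.12, 1.97 and 0.78 at 16 months, and 1.64, 0.49 and 0.80 at 24 months. All 6 arrays of the older ages were above all 3 of 6 months, which lay within 0.06 (SD) of each other around -0.08. It rose by 1.29 at 16 months against the reference (SE 0.25, adjusted p = 0.0135 by limma), or 2.45-fold. At 24 months it rose by 0.98 (SE 0.25, adjusted p = 0.0284).

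Between 16 and 6 months the Lyz1 probe differed by 1.37 (SE 0.36, 95% interval 0.55 to 2.19, unadjusted p = 0.00491, adjusted p = 0.769 by limma), and between 24 and 6 months by 1.06 (SE 0.36, 95% interval 0.24 to 1.88, adjusted p = 0.505). Neither was called. The mean was 1.29 ± 0.61 (SD, n = 3) at 16 months and 0.98 ± 0.60 (SD, n = 3) at 24 months, a difference of -0.31 (SE 0.36) within the spread.

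**Figure D2:**
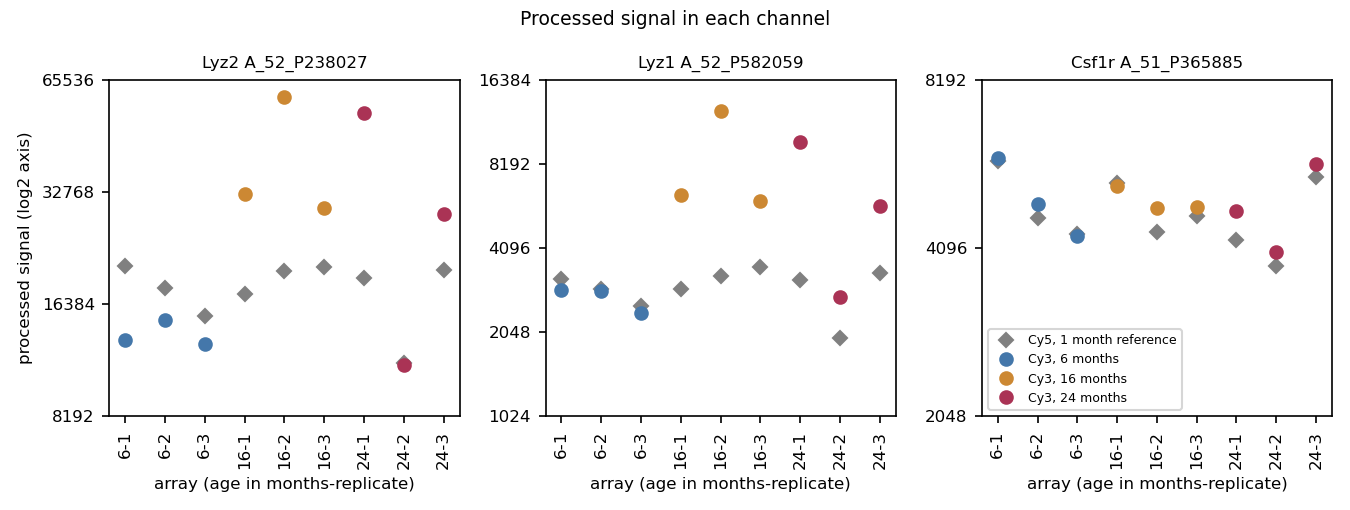
Processed signal (y axis, log2 scale) on each of the 9 arrays (x axis) for Lyz2 A_52_P238027, Lyz1 A_52_P582059 and Csf1r, with the 1 month reference in Cy5 as grey diamonds and the older mouse in Cy3 as coloured circles. For the lysozymes the circles lie above the diamonds on every 16 months array and on 24 months replicates 1 and 3, and below them at 6 months, most for Lyz2 on replicate 1 (log2 ratio -0.66). Both channels are low on 24 months replicate 2, where Lyz2 is at the reference and Lyz1 above it (0.49), and for Csf1r circle and diamond stay together on every array.

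The array with the highest lysozyme values was also the one high in granulocyte markers. On 16 months replicate 2, all 3 lysozyme probes had their highest ratio of the 9 arrays, and the summed Cy3 signal of the 15 granulocyte markers was 127819. It was 12669 and 21340 on the other 16 months arrays, 13659 to 14368 at 6 months and 9733 to 10810.5 at 24 months. Neutrophils also express Lyz2. Without that array the Lyz1 probe stood at 0.95 against the reference at 16 months (adjusted p = 0.0820 by limma), Lyz2 A_51_P321150 at 0.62 (adjusted p = 0.122) and A_52_P238027 at 0.71 (adjusted p = 0.243), and no lysozyme call remained.

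The differences between 16 and 6 months without 16 months replicate 2 were 1.11 for Lyz2 A_52_P238027, 0.47 for A_51_P321150 and 1.03 for the Lyz1 probe. On 24 months replicate 1 the granulocyte markers had a mean of -1.08, below every 6 months array, while the Lyz2 and Lyz1 probes stood at 1.47 and 1.64. At 24 months, the Lyz1 call ended without 24 months replicate 1 (0.64, adjusted p = 0.127 by limma) and without replicate 3 (1.06, adjusted p = 0.0615). The part of granulocytes in the lysozyme values was not tested.

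Cybb, the oxidase subunit, followed the lysozymes on 1 of its probes. Probe A_52_P444628 had log2 ratios of -0.18, -0.40 and 0.10 at 6 months, 1.23, 1.31 and 0.57 at 16 months, and 1.50, -0.12 and 0.78 at 24 months. All arrays of 16 months were above those of 6 months, while 24 months replicate 2 fell among the latter. It rose by 1.04 at 16 months against the reference (SE 0.28, adjusted p = 0.0372 by limma), or 2.06-fold, and stood at 0.72 at 24 months (SE 0.28, adjusted p = 0.0906).

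Between 16 and 6 months this Cybb probe differed by 1.20 (SE 0.39, 95% interval 0.30 to 2.10, adjusted p = 0.769 by limma), and between 24 and 6 months by 0.88 (SE 0.39, 95% interval -0.02 to 1.78, adjusted p = 0.553). The call at 16 months ended without any of 7 arrays, with adjusted p from 0.0503 to 0.193. The exceptions were again 24 months replicates 1 and 2. Without 24 months replicate 2 the 24 months value was 1.14 (adjusted p = 0.0296).

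The other Cybb probe, A_51_P330331, had a dim signal of 107 to 285 in Cy3, and was not well above background on 24 months replicate 2. Its log2 ratios lay between -0.15 and 0.04 at 6 months, between 0.04 and 0.21 at 16 months and between -0.28 and 0.57 at 24 months. At 16 months it stood at 0.15 against the reference (SE 0.14, adjusted p = 0.484 by limma). The Cybb probes therefore disagreed in size, 1.04 against 0.15, and over the 9 arrays their ratios correlated with r = 0.74. Both depended on the background correction. With normexp background correction and loess, 16 against 6 months fell from 1.20 to 0.73 for A_52_P444628. For A_51_P330331 it fell from 0.23 to 0.0028.

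Among the genes that work with Cybb are Cyba, which forms the membrane complex with it, Ncf4, a cytosolic subunit, and the small GTPase gene Rac2. Cyba and Rac2 were called higher at each age against the reference, and none of these 3 between ages. Cyba stood at 0.46 at 6 months, 0.62 at 16 months and 0.48 at 24 months (SE 0.12 each), and was above the reference at 6 months already. Rac2 was 0.34, 0.40 and 0.37 (SE 0.07 each). Between 16 and 6 months Ncf4 differed by 1.20 (SE 0.37, adjusted p = 0.769 by limma).

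The complement genes C1qa and C1qb were higher on every 16 months array than on every 6 months array, by a narrow margin, and did not pass any test. C1qa had log2 ratios of 0.38, 0.20 and -0.15 at 6 months, 0.57, 0.92 and 0.46 at 16 months, and 1.22, -0.01 and 0.55 at 24 months. C1qb had a smaller range, with 0.09, 0.05 and -0.03, then 0.12, 0.31 and 0.15, then 0.38, -0.08 and 0.27. For both genes 24 months replicate 1 was the highest of the 9 arrays and 24 months replicate 2 the lowest of its age. At 16 months against the reference C1qa stood at 0.65 (SE 0.21, adjusted p = 0.0692 by limma) and C1qb at 0.19 (SE 0.09, adjusted p = 0.159).

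At 24 months C1qa was 0.59 (SE 0.21, adjusted p = 0.0759 by limma) and C1qb 0.19 (SE 0.09, adjusted p = 0.141). Without 24 months replicate 2 both were called at 24 months, C1qa at 0.89 (adjusted p = 0.0347) and C1qb at 0.33 (adjusted p = 0.0314). Both were then also called at 16 months (adjusted p = 0.0302 and 0.0492). Their 16 months values did not change, 0.65 and 0.19, as that array enters them only through the spread shared by all arrays. At 24 months without replicate 1, C1qa stood at 0.27 and C1qb at 0.09. The differences of C1qa between ages were 0.50 for 16 against 6 months (95% interval -0.19 to 1.19) and 0.44 for 24 against 6 months (95% interval -0.25 to 1.13). With normexp background correction and loess these differences were 0.27 and 0.26.

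Of 9 other complement genes tested, 1 was called higher at 6 months, 3 at 16 months and 3 at 24 months against the reference, and 0 lower, where 7.61%, 11.4% and 11.6% of all probes were called higher. At 16 months these were C3, C1s1 and C1ra. C3, the central component, stood at 1.42 (SE 0.29, adjusted p = 0.0165 by limma). C1s1, a protease of the classical pathway, stood at 0.49 (SE 0.13), and C1ra is the protease that cleaves it. At 24 months the 3 called higher were C1ra, C1s1 (0.62, SE 0.13) and Cfb, of the alternative pathway (0.61, SE 0.14). The C1ra probe was not well above background in Cy5 on any array, so that no fold is given for it. In Cy3 it was well above background on 1, 3 and 2 of 3 arrays at 6, 16 and 24 months. It passed the filter only through its 3 arrays of 16 months, so that its calls at 16 and 24 months, counted above, are no support for a change. C1qc, the third C1q chain gene, had the smallest p at 24 against 6 months (0.83, SE 0.32, adjusted p = 0.532).

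The receptor gene Csf1r barely moved. Its log2 ratios were 0.02, 0.09 and -0.01 at 6 months, -0.02, 0.15 and 0.05 at 16 months, and 0.17, 0.08 and 0.08 at 24 months. All ages overlapped. The difference between 16 and 6 months was 0.03 (SE 0.07, 95% interval -0.13 to 0.19), and that between 24 and 6 months 0.08 (SE 0.07, 95% interval -0.08 to 0.24), so that a change as large as that of the Lyz1 probe lay outside both intervals.

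Of 9 genes of the CSF1 receptor axis, which holds its ligands Csf1 and Il34 and myeloid transcription factors, 1 was called higher at 16 months and 1 lower at 24 months against the reference. Counts of 1 of 9 are near the background, 11.4% called higher at 16 months and 13.3% lower at 24 months. The first was Cebpb, a transcription factor gene of macrophage activation (0.46, SE 0.12, adjusted p = 0.0311 by limma), and the other was Spi1, which encodes the myeloid factor PU.1 (-0.24, SE 0.07, adjusted p = 0.0329). At 6 months 0 of 9 were called, and 0 between ages.

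Cd14, the coreceptor for bacterial lipopolysaccharide, also stayed near the reference. It had log2 ratios of 0.08, -0.11 and -0.01 at 6 months, 0.09, 0.20 and -0.06 at 16 months, and 0.02, 0.00 and 0.04 at 24 months. The ages overlapped, and 16 against 6 months gave 0.09 (SE 0.08, 95% interval -0.10 to 0.28). Of 9 tested partners of Cd14 in signalling, 2 were called higher at 16 months and 2 higher and 2 lower at 24 months against the reference, beside 11.4% higher at 16 months and 11.6% higher and 13.3% lower at 24 months among all probes. The kinase genes Irak4 (0.70, SE 0.12 at 16 months, then 0.83, SE 0.12 at 24 months) and Irak1 (0.43, then 0.31, SE 0.09 each) were the higher ones. Lbp, which delivers lipopolysaccharide to Cd14, was -0.25 (SE 0.07) and Tlr4, the lipopolysaccharide receptor, was -0.21 at 24 months.

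None of the remaining surface and endosomal markers passed a test. Cd68, a glycoprotein of macrophage endosomes, had log2 ratios of -0.16, -0.10 and -0.40 at 6 months, -0.02, 0.01 and -0.04 at 16 months, and 0.16, -0.24 and 0.11 at 24 months. The 16 months arrays lay above those of 6 months, but the difference was 0.20 (SE 0.12, 95% interval -0.08 to 0.49, adjusted p = 0.786 by limma).

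Adgre1, tested on probe A_51_P251768, had log2 ratios of -0.31, -0.30 and -0.11 at 6 months, 0.19, 0.00 and -0.18 at 16 months, and 0.15, 0.22 and 0.08 at 24 months. It was the member with the smallest unadjusted p at 24 against 6 months, where the arrays did not overlap (0.39, SE 0.11, 95% interval 0.14 to 0.64, unadjusted p = 0.00705, adjusted p = 0.456). Here 24 months replicate 2 was the highest array of its age. At 24 months it stood at 0.15 against the reference (SE 0.08, adjusted p = 0.179). At 6 months it stood at -0.24 against the reference (SE 0.08, adjusted p = 0.0784), and was called lower there with normexp and loess (adjusted p = 0.0456) and with the authors' scores (adjusted p = 0.0494). The dim Adgre1 probe A_52_P364727, not tested, had 0.26, -1.20 and 0.02, then -0.13, -0.70 and 0.42, then -0.41, -0.86 and -0.19, and did not follow the tested one (r = -0.19 over 9 arrays).

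Mrc1, the mannose receptor of resident tissue macrophages, was the most variable member. Its log2 ratios were -0.35, -0.69 and 0.49 at 6 months, 0.23, -0.66 and -0.33 at 16 months, and 0.77, -1.82 and -0.08 at 24 months. Replicates of 1 age spread over more than the ages differed, and on 24 months replicate 2 it was not well above background in Cy3. The difference of 24 against 6 months was -0.19 (SE 0.63, 95% interval -1.64 to 1.25), and 0.53 without that array. Against the reference it stood at -0.18, -0.25 and -0.37 at the 3 ages (SE 0.44 each).

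Counted together, 4 of the 12 tested probes were called higher at 16 months against the reference, where 11.4% of all tested probes were called higher. The 4 were the 3 lysozyme probes, of which that of Lyz1 may also read Lyz2, and 1 probe of Cybb. At 24 months 1 of 12 was called higher, that of Lyz1, against 11.6% of all probes, and at 6 months 0 of 12 against 7.61%. No member was called lower, against 4.76%, 6.59% and 13.3% of all probes at 6, 16 and 24 months. In both directions together, 12.4%, 18% and 24.9% of all probes were called, against 0, 4 and 1 of 12 members. The 3 ratios had 1 sign for 5, 7 and 4 of 12 members at 6, 16 and 24 months, against 57.2%, 59% and 56% of all probes. Without 16 months replicate 2 the count at 16 months was 0, without 16 months replicate 1 it was 1, and without any 6 months array, 16 months replicate 3 or 24 months replicate 3 it was 2. Without 24 months replicate 2 it was 6 at 16 months and 5 at 24 months. The count at 24 months was 0 without 24 months replicate 1 or 3, and 2 without 16 months replicate 2 or 3.

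Between ages 0 of 37448 probes were called by limma in each of the 3 comparisons, so that the share called was 0% throughout. At an unadjusted p under 0.05 there were 2388 probes for 16 against 6 months, 3412 for 24 against 6 months and 1786 for 24 against 16 months, of which 4, 3 and 0 were members. The arrays of 16 and 6 months did not overlap for 7 of 12 members, against 13.8% of all probes. They were the probes of Lyz2 and Lyz1, Cybb A_52_P444628, C1qa, C1qb and Cd68, each higher at 16 months. For 24 against 6 months it was 3 of 12, Lyz2 A_52_P238027, Lyz1 and Adgre1, against 15.7%, and for 24 against 16 months 0 of 12, against 10.5%.

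The median log2 difference of the members was 0.23 for 16 against 6 months, beside 0.01 over all tested probes, and 0.31 for 24 against 6 months, beside -0.02. For 24 against 16 months it was -0.06, beside -0.02. The comparisons of 16 and of 24 months with 6 months share the 6 months arrays.

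**Figure D3:**
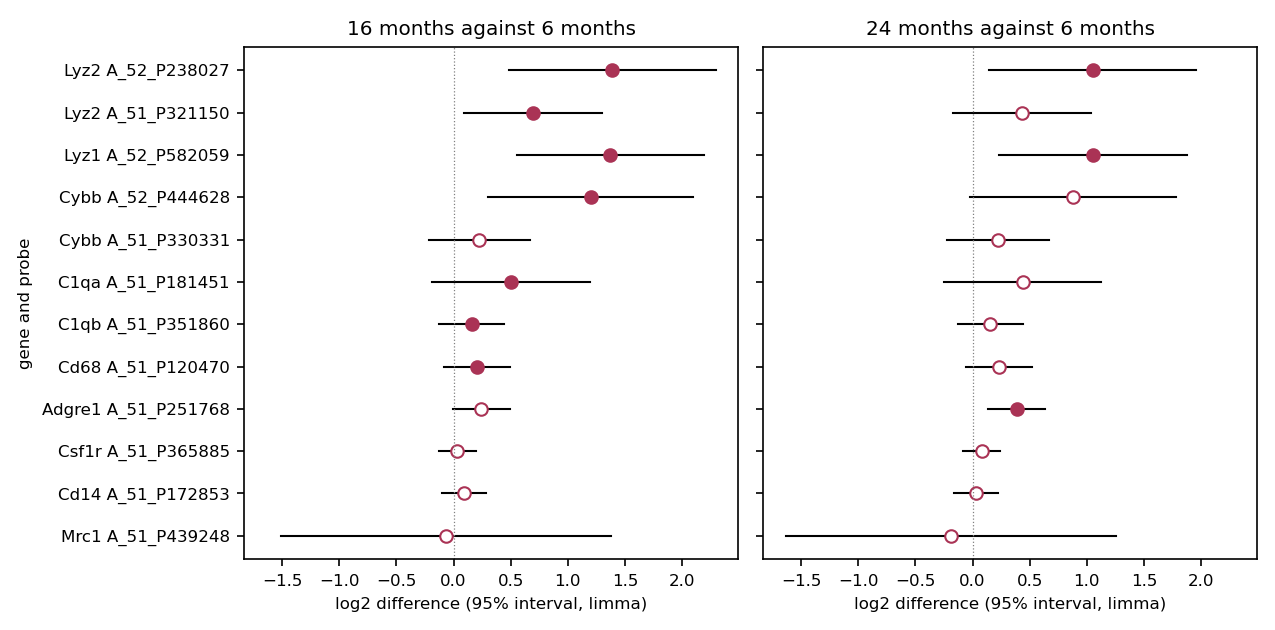
Log2 difference of 16 against 6 months and of 24 against 6 months (x axis) for each tested probe (y axis), with points at the limma estimate and lines for the 95% interval; filled points mark probes whose arrays of the 2 ages do not overlap. Lyz2 A_52_P238027, Lyz1 and Cybb A_52_P444628 have the 3 largest estimates in both comparisons and wide intervals, Csf1r and Cd14 lie near 0 with short ones, and the interval of Mrc1 is the widest.

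Some members varied together across the arrays and others did not, as described by correlations over 9 arrays, which share their reference and include 3 ages. The lysozyme probes correlated with each other at r = 0.85 to 0.99. Lyz2 A_52_P238027 correlated with Cybb A_52_P444628 at r = 0.95, and C1qa with C1qb at r = 0.95. Cd68 stood closer to C1qb (r = 0.90) than to Lyz2 A_52_P238027 (r = 0.72), while Mrc1 correlated with Lyz2 A_52_P238027 at r = 0.30 and with Csf1r at r = -0.11. Cd14 correlated with Lyz2 A_51_P321150 at r = 0.76 but with Csf1r at r = 0.14, and Adgre1 A_51_P251768 with Lyz1 at r = 0.60 but with C1qb at r = 0.21.

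Among all named genes tested, the 5 most like Lyz2 A_52_P238027 over the 9 arrays were Lyz1 (r = 0.985), the calcium-binding protein gene S100a6 (r = 0.974), the neutrophil elastase inhibitor gene Serpinb1a (r = 0.971), the interleukin 18 receptor gene Il18r1 (r = 0.967) and the actin regulator gene Cyfip1 (r = 0.955). The 5 most like the mean of C1qa and C1qb were the MHC class II gene H2-Eb1 (r = 0.968), the matrix protein gene Tgfbi (r = 0.962), Sema4a (r = 0.958), Pxdc1 (r = 0.956) and the cytokine gene Il33 (r = 0.952). No gene was in both groups of 5.

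Other markers of macrophages and monocytes were set beside the members. Of 29 tested, 2 were called higher at 16 months against the reference, and 4 higher and 1 lower, the haem-degrading enzyme gene Hmox1, at 24 months. These counts are near the background of 11.4% and 11.6% of all probes called higher and are no result about the list. Ccr2, the chemokine receptor of recruited monocytes, was 1.06 at 16 months and 1.02 at 24 months (SE 0.13 each, adjusted p = 0.0033 and 0.0037 by limma). Fcgr1, the high-affinity Fc receptor, was 0.51 and 0.55 (SE 0.13 each), and Mpeg1, a pore-forming protein of macrophages, was 0.42 at 24 months (SE 0.12). At 6 months 0 of 29 were called.

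Between ages 0 of the 29 were called, with medians of 0.15 for 16 against 6 months, beside 0.01 over all probes, and 0.23 for 24 against 6 months, beside -0.02. The smallest p was that of Ccr2 at 16 against 6 months (0.68, SE 0.18, adjusted p = 0.769 by limma) and of the cytokine gene Il1b at 24 against 6 months (1.38, SE 0.37, adjusted p = 0.448). The mean of the 29 was -0.11, -0.19 and 0.01 on the arrays of 6 months, 0.14, 0.08 and 0.03 at 16 months, and 0.41, -0.06 and 0.16 at 24 months. It was highest on 24 months replicate 1, where Cybb and C1qa were highest too, and at 24 months lowest on replicate 2. The means of dendritic cell (0.46), stroma and fat (0.67) and thymic epithelium markers (0.05) were also highest on 24 months replicate 1. Those of B cell, NK cell, erythroid and thymocyte markers were highest on 16 months replicate 1, and that of granulocyte markers on 16 months replicate 2.

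Lysosomal genes belong to the compartment in which macrophages and other cells degrade their uptake. Of 17 tested, 4 were called higher at 6 months, 8 at 16 months and 9 at 24 months, with 1 lower at 24 months and 0 called between ages. Among all probes 7.61%, 11.4% and 11.6% were called higher. The largest were Psap, which encodes the precursor of the saposins (1.08, 1.47 and 1.40, SE 0.12 each), and the protease gene Ctsd (0.72, 0.79 and 0.82, SE 0.07 each). Hexa, a hexosaminidase subunit, stood at 0.87 at 16 months, and the cholesterol transporter gene Npc1 at 0.82 at 24 months. The gene called lower was Lamp2. None of the lysozyme, Cybb and C1q probes was called at 6 months.

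Other cell types gave the following values, to be read against the shares of all probes called at 6, 16 and 24 months (7.61%, 11.4% and 11.6% higher, 4.76%, 6.59% and 13.3% lower). At 24 months 7 of 15 granulocyte markers were called lower and 1 higher against the reference, with S100a8 at -4.25 (SE 0.95), S100a9 at -3.89 (SE 0.96) and Camp at -3.36 (SE 0.90), and 1 was called lower at each of 6 and 16 months, the protease gene Prtn3 (-0.22 at both). Of 14 dendritic cell markers, 1 was called higher at 16 months, Bst2 (0.62, SE 0.10), and 4 at 24 months, led by Clec9a (0.54, SE 0.13), and their mean ran from -0.12 to 0.01 at 6 months, 0.14 to 0.19 at 16 months and -0.11 to 0.46 at 24 months. Of 14 stroma and fat markers, 2 and 3 were called higher, with the matrix gene Dcn at 1.62 and 1.66 (SE 0.36 each), and their mean ran from 0.03 to 0.13, 0.20 to 0.32 and 0.07 to 0.67, highest on 24 months replicate 1. Of 8 B cell markers 1 was called higher at 16 months, Cd79b (0.66, SE 0.16), and of 8 NK cell markers 3 were called higher at each of 16 and 24 months, among them Klrk1 (1.40 and 1.42) and Nkg7 (1.45 and 0.90), and 1 lower at 24 months, Prf1 (-0.57). Of 11 thymic epithelium markers 6, 3 and 2 were called lower at 6, 16 and 24 months, led by the chemokine gene Ccl25 (-2.43, -2.20 and -1.81, SE 0.20 each). None of these lists had a gene called between ages. Of 15 thymocyte markers 5 were called higher and 1 lower at 6 months, 7 and 1 at 16 months and 7 and 2 at 24 months, with Cd2, which was not saturated, at 0.62, 0.76 and 0.69 (SE 0.10 each). The part of these cells in the values of the members was not tested.

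Haemoglobin, which marks remaining red cells, was higher on every 16 months array than on every 6 months array, as were the lysozyme, C1q, Cd68 and Cybb A_52_P444628 probes. The mean of its 9 probes was -1.17, -1.12 and -0.73 at 6 months, 1.15, 0.72 and -0.41 at 16 months, and -1.05, 0.24 and 0.83 at 24 months. The 24 months arrays spread across both other ages, and on replicate 1 haemoglobin was low where the lysozyme ratios were high. With this mean as a covariate, the differences of 16 against 6 months were 1.66 for Lyz2 A_52_P238027 (SE 0.58), 0.52 for A_51_P321150 (SE 0.39), 1.58 for Lyz1 (SE 0.53) and 1.31 for Cybb A_52_P444628 (SE 0.59). Against the reference, 1 member was called at 16 months, the Lyz1 probe (1.36, adjusted p = 0.0299 by limma), and the same probe at 24 months (0.98, adjusted p = 0.0394).

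**Figure D4:**
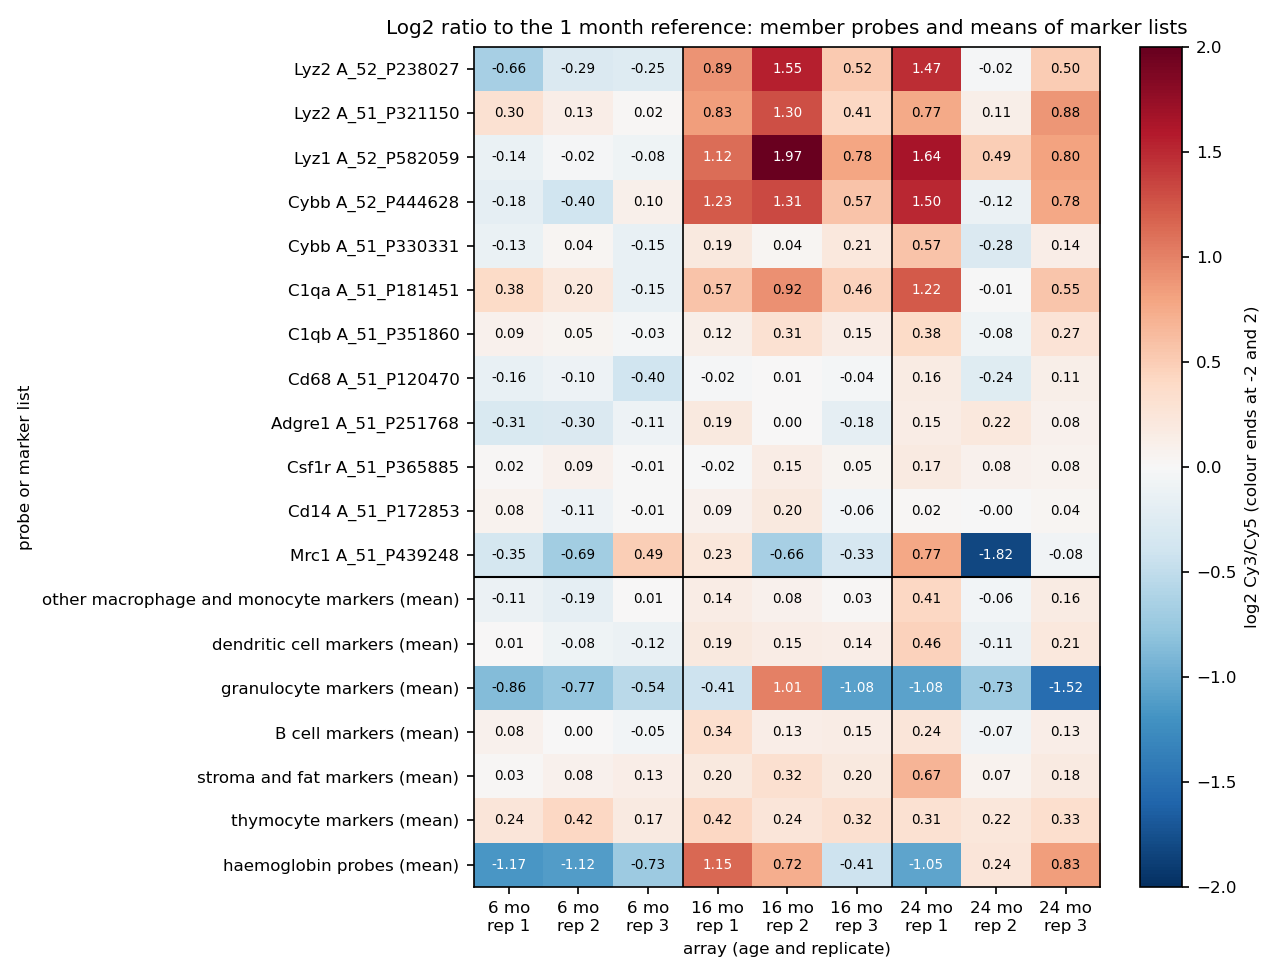
Log2 ratio to the 1 month reference by array (columns, in age order) for the tested probes (rows above the line) and the mean over each marker list (rows below it), in colour from -2 to 2 with the value printed. Granulocyte markers are above 0 on 16 months replicate 2 only (1.01), the mean of the stroma and fat markers is highest on 24 months replicate 1 (0.67), and Csf1r and Cd14 stay between -0.11 and 0.20 on every array.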

How the data were processed

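The deposited scanner files hold intensity values per feature. Background had been subtracted from the processed signals and the dyes normalized by LOWESS (smooth factor 0.25), per the file headers, which name Agilent Feature Extraction 7.5.1, where the submitters' processing notes name 7.1. The authors' deposited value table gives each channel a score. It equals the log10 processed signal after subtracting the channel's mean and dividing by its SD, to within 5e-10 in all 18 columns.

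Log2 ratios of processed Cy3 to Cy5 signal were computed per array, outlier spots were left out and replicate spots averaged. A probe was tested when flagged well above background in Cy3 on each of the 3 arrays of an age, or in Cy5 on all 9. One limma 3.58.1 model (R 4.3.3, prior df 1.94, residual df 6) with a mean per age gave 3 comparisons between ages and 3 with the reference, two-sided. The fit was tested on simulated data. Symbols came from RefSeq (GRCm38.p6) for 20851 probes. Beyond the members, the text names up to 3 called genes of a list with the largest change, or that with the smallest p, and Tlr4, Hmox1 and Lamp2, chosen after their values were seen. The list of oxidase partners is not reported here as a whole. Members and lists were chosen with earlier results of these data known. No pairing by the labels' replicate numbers was seen. Deviations from the age mean correlated at -0.31 to 0.10 for same-numbered arrays and at -0.26 to 0.33 for the others. With 3 arrays per age these deviations sum to 0, so that this check cannot exclude pairing. Tables and figures used Python 3.11.15, numpy 2.4.6, pandas 2.3.3 and matplotlib 3.10.9.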

Additional observations from a re-analysis of the deposited data

Results flagged for a closer look

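Among the 1 month reference signals of the 13 member probes in Cy5 over the 9 arrays, 2 had a single array far from the others by Dixon's test (critical value 0.493 for 9 arrays), and on both it was the array of 24 months replicate 2. The log2 Cy5 signal of C1qb was 9.97 there, against 10.22 to 10.46 on the other 8 (gap over range 0.503). That of Cybb A_52_P444628 was 8.16, against 8.49 to 8.72 (0.591). Chance gives such a result for about 1 in 20 groups, and 13 were examined, which share their arrays and are not independent. On the same array the Cy5 signals of Lyz2 A_52_P238027 (11372) and of the Lyz1 probe (1942) were also each probe's lowest of the 9 arrays. So were those of Adgre1 A_51_P251768 (1865), Cd68 (616), Csf1r (3809), Cd14 (1111) and Mrc1 (283). The summed Cy5 signal of the thymocyte markers was lowest there too (646243). For C1qa, Lyz2 A_51_P321150, Cybb A_51_P330331 and Adgre1 A_52_P364727 another array had the lowest Cy5 signal.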

How the results depend on the processing

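Between ages, 0 probes were called under every alternative other than single left-out arrays, where the range was 0 to 1 in each comparison. Against the reference, the 4632, 6746 and 9335 probes called at 6, 16 and 24 months became 1132, 3534 and 0 with only the arrays of that age in the fit. At 6 months the count was 2427 with a replicate block and 17 with the haemoglobin covariate. Leaving out each array in turn gave 290 to 5406 at 6 months, 1240 to 7728 at 16 months and 3505 to 8712 at 24 months. The cause was not tested. No called member changed sign under any alternative. At 16 months, 4 members were called with normexp and loess, median centring, the strict filter or outlier spots kept. The authors' scores or no filter gave 3, the replicate block 2 and haemoglobin 1. With the 16 months arrays alone 2 were called, Cybb A_52_P444628 and C1qa, and the lysozyme calls ended. At 24 months 2 were called with normexp and loess, median centring, the authors' scores or the strict filter, and 0 with the block or with the 24 months arrays alone. With the replicate block Lyz2 A_52_P238027 (adjusted p = 0.0882 by limma) and Cybb A_52_P444628 (0.0568) were lost at 16 months and Lyz1 at 24 months (0.0528). The scan date as a block was not run, since the headers give 1 extraction day for all arrays. Dim probes limit Mrc1, Cybb A_51_P330331 and the untested Adgre1 probe.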
